A study of Homo sapiens with 8 samples.

Results

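L-ascorbic acid (LAA, vitamin C) given alone was compared with vehicle in U-937 cells, an established human line of pro-monocytic cells, across every gene that passed a filter on low counts, which left 14995 of the 61125 genes in the count table. The comparison used 4 of the 8 RNA-sequencing libraries. The vehicle group (2 libraries) received PBS and DMSO, and the LAA group (2 libraries) received 250 µM LAA, which was dissolved in PBS; both were collected after 72 h. The other 4 libraries came from cells given ATRA (all-trans retinoic acid, 1 µM, dissolved in DMSO) without or with 250 µM LAA for the same 72 h, 2 libraries each, and they entered the estimate of spread. All groups were the same line, grown in RPMI 1640 with 10% fetal bovine serum. The labels do not say whether the LAA cultures also received DMSO. They do not say either whether replicates were separate cultures, so p-values measure the spread between these libraries, which may be technical.

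Ascorbate enters cells through sodium-dependent transporters of the SLC23 family, and its oxidized form enters through glucose transporters. Inside the cell it keeps the iron of oxoglutarate-dependent dioxygenases in the reduced state. That family holds the TET enzymes, which oxidize methylcytosine in DNA, the Jumonji (JmjC) histone demethylases, the EGLN prolyl hydroxylases that mark HIF transcription factors for destruction, and the prolyl and lysyl hydroxylases of collagen. In culture medium ascorbate can also oxidize and yield hydrogen peroxide. Most of these actions are on proteins and DNA, and the present data are mRNA levels only.

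Library totals were 19646442 and 19541981 estimated counts in vehicle and 19376377 and 18462552 with LAA. The median absolute log2 difference between replicates was 0.0937 in vehicle and 0.107 with LAA, against 0.167 with ATRA and 0.162 with both compounds. The pro-monocytic identity of the line was visible in both groups: all 20 listed myeloid identity genes were tested, and their levels summed to 7818 and 8028 CPM (estimated counts scaled to library size, with TMM factors) in vehicle and 8099 and 8587 CPM with LAA. Of 34 marker genes of other lineages, 11 passed the filter, and their sum was 352 and 368 CPM in vehicle and 356 and 379 CPM with LAA, most of it NKG7. The T-cell genes CD3D and CD3E and the erythroid gene HBB did not pass the filter.

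Few genes passed the test. At an adjusted p under 0.05 (edgeR quasi-likelihood test, 2-sided, Benjamini-Hochberg over 14995 genes), 3 genes rose and 1 fell with LAA, 4 in all or 0.0267% of the genes tested. EXOSC4, a subunit of the RNA exosome that trims and degrades RNA from its end, lies at chr8:144078626-144080647 on the plus strand (GRCh38, GENCODE 29). It read 29.6 and 28.2 CPM in vehicle and 48.9 and 51.9 CPM with LAA. ERMP1, a zinc metallopeptidase of the endoplasmic reticulum, lies at chr9:5765076-5833117 on the minus strand. It read 56.7 and 55.4 CPM in vehicle and 34.7 and 33.2 CPM with LAA. The LAA libraries of each gene did not overlap its vehicle libraries, and they differed by a log2 difference of 0.80 ± 0.11 (SE) for EXOSC4 and -0.72 ± 0.10 (SE) for ERMP1, each with an edgeR adjusted p of 0.0326. Per kilobase the level of ERMP1 was 12.8 and 12.7 FPKM in vehicle and 8.16 and 7.3 FPKM with LAA. Both calls rested on every library of the comparison: the edgeR adjusted p lay between 0.11 and 0.434 for EXOSC4, and between 0.136 and 0.434 for ERMP1, when any 1 of the 4 was left out. The edgeR adjusted p was 0.0617 for both genes when the replicate number was a block. It was 0.0508 for both when 7 pairs of near-identical or overlapping genes were each summed. Neither gene is in those pairs, their log2 differences stayed at 0.80 and -0.72, and no gene was called with the pairs summed. On log2(FPKM + 1) limma gave adjusted p = 0.114 for EXOSC4 and 0.166 for ERMP1.

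The other called genes had no symbol and no count in vehicle. ENSG00000266642.2 (chr17:28897738-28899402, plus strand) read 0 and 0 CPM in vehicle and 3.98 and 2.23 CPM with LAA, which is at least 42.8-fold higher when the vehicle group is set to a floor of 3 counts. It overlaps DHRS13, a dehydrogenase gene, on the opposite strand, and the counting is not stated to use strand. The sum of the pair was 12.4 and 12 CPM in vehicle and 13.1 and 13 CPM with LAA, a log2 difference of 0.10. ENSG00000230955.1 (chr1:37860697-37861580, plus strand) read 0 and 0 CPM in vehicle and 1.96 and 1.92 CPM with LAA, at least 26.7-fold higher, and it overlaps INPP5B, an inositol phosphatase gene, on the opposite strand. That pair summed to 48.7 and 52.6 CPM in vehicle and 52.2 and 46.3 CPM with LAA. So the summed signal of the DHRS13 pair was barely higher with LAA, and that of the INPP5B pair overlapped between the groups. With LAA the estimated counts were fractional, 182.74 and 205.65 for DHRS13 and 80.265 and 42.41 for its partner. Their sums, 263 and 248.06, were at or near whole numbers. The INPP5B pair likewise held 1011.6 and 845.48 counts against 39.447 and 36.527, and summed to 1051 and 882.01. How reads were shared between a gene and its antisense partner was not tested. The values of each partner alone are therefore uncertain.

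Just outside the threshold stood a crowd of genes. The next adjusted p was 0.0507, and 182 genes had an adjusted p from 0.05 to 0.06 in the edgeR fit. At an unadjusted p under 0.05 there were 1501 higher and 1332 lower genes (10% and 8.88% of those tested). Both LAA libraries lay above both vehicle libraries for 28.6% of genes and below them for 27.4%, 56% in all. The differences were small: the median absolute log2 difference was 0.206, and of 10538 genes with a mean of at least 5 CPM, 16 were at least 2-fold higher and 8 at least 2-fold lower. The number of calls depended on which libraries set the spread. An edgeR fit to only the 4 vehicle and LAA libraries called 1124 genes higher (7.5%) and 892 lower (5.95%). DESeq2 on all 8 libraries called 418 higher and 295 lower (5.21% and 3.68%), together 8.89% of the 8018 genes to which it gave an adjusted p, and 711 of its 713 calls were among those of the 4-library fit. Below, a gene is said to pass the 4-library fit where that alternative called it, and the words rose and fell are kept for calls of the 8-library fit.

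The genes with the lowest p in each direction, 12 higher and 12 lower, are described next. These 24 have a symbol, at least 5 CPM and libraries that do not overlap, which the naming rule required, and their edgeR adjusted p ran from 0.0326 to 0.0509. All 24 passed the 4-library fit, with a highest adjusted p of 0.00626.

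Among the higher genes, several act in mitochondria. MRPL41, a protein of the large subunit of the mitochondrial ribosome, read 43.7 and 40.3 CPM in vehicle and 73 and 84 CPM with LAA, a log2 difference of 0.90 ± 0.13 (SE). MRPL20, of the same subunit, read 52.4 and 53.7 CPM in vehicle and 77 and 81 CPM with LAA. SLIRP, which stabilizes mitochondrial mRNA together with LRPPRC, read 41.5 and 42.8 CPM in vehicle and 70.3 and 61.7 CPM with LAA. BAX, which permeabilizes the outer mitochondrial membrane in apoptosis, read 42.8 and 42.3 CPM in vehicle and 65.5 and 67.5 CPM with LAA. The log2 differences were 0.57 for MRPL20, 0.65 for SLIRP and 0.64 for BAX.

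Others act on proteins or RNA. PFDN2, a subunit of the prefoldin chaperone that hands unfolded actin and tubulin to the folding machinery, read 59.8 and 64.5 CPM in vehicle and 96.8 and 103 CPM with LAA. NAA10, the catalytic subunit of the main amino-terminal acetyltransferase, read 70.8 and 72.5 CPM in vehicle and 104 and 110 CPM with LAA. ZNF593, a zinc finger protein of ribosome assembly, read 44.5 and 45.9 CPM in vehicle and 69.9 and 68 CPM with LAA. Their log2 differences were 0.69 for PFDN2, 0.58 for NAA10 and 0.61 for ZNF593. SAP25, also among the 12, read 5.49 and 5.48 CPM in vehicle and 10.1 and 10.1 CPM with LAA, a log2 difference of 0.88. The 2 myeloid genes among the 12 were LGALS12, a galectin, at 39.9 and 45.8 CPM in vehicle and 63.9 and 67.6 CPM with LAA, and S100A9, the calcium-binding calprotectin subunit of myeloid cells, at 3.56 and 3.3 CPM in vehicle and 7.34 and 8.56 CPM with LAA. S100A9 read 46.5 and 62.7 CPM with ATRA, far above both of these groups. LOC102724594 had the largest log2 difference of the 24, 1.75, but it is a near-identical copy of the splicing factor gene U2AF1. Reads can be split either way between such copies. The pair summed to 162 and 173 CPM in vehicle and 240 and 234 CPM with LAA, a log2 difference of 0.50 ± 0.09 (SE, edgeR adjusted p = 0.0508).

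The 12 lower genes had varied roles. ATP2B4, the plasma membrane calcium pump PMCA4, read 136 and 127 CPM in vehicle and 82.6 and 85.6 CPM with LAA, a log2 difference of -0.65 ± 0.10 (SE). NOTCH2, a Notch receptor, read 149 and 139 CPM in vehicle and 83.3 and 102 CPM with LAA. Both SOS genes, whose proteins load Ras with GTP, were among the 12: SOS1 read 44.2 and 39.5 CPM in vehicle and 25.8 and 28.7 CPM with LAA, and SOS2 read 33.7 and 31.4 CPM and then 21 and 21.9 CPM. ANO6, the calcium-activated lipid scramblase that exposes phosphatidylserine, read 51.4 and 44.6 CPM in vehicle and 30.9 and 32.9 CPM with LAA. ALDH6A1, a mitochondrial enzyme of valine breakdown, read 44.6 and 44.5 CPM in vehicle and 27.7 and 28.2 CPM with LAA. YPEL1 had the largest log2 difference among the lower genes, -1.18, at 14 and 13.5 CPM in vehicle and 7.2 and 4.94 CPM with LAA. The remaining lower genes were the ubiquitin ligase TTC3 (-0.58), the Argonaute gene AGO4 (-0.52), the Rab regulator TBC1D5 (-0.60), the formin DIAPH2 (-0.53) and ERMP1. The higher and lower genes differed in transcript length: the annotated length ran from 577 to 4715 bases (median 1163.5) for the 12 higher genes and from 4329 to 11389 bases (median 7485) for the 12 lower, while the median of all genes tested was 3251 bases.

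**Figure D1:**
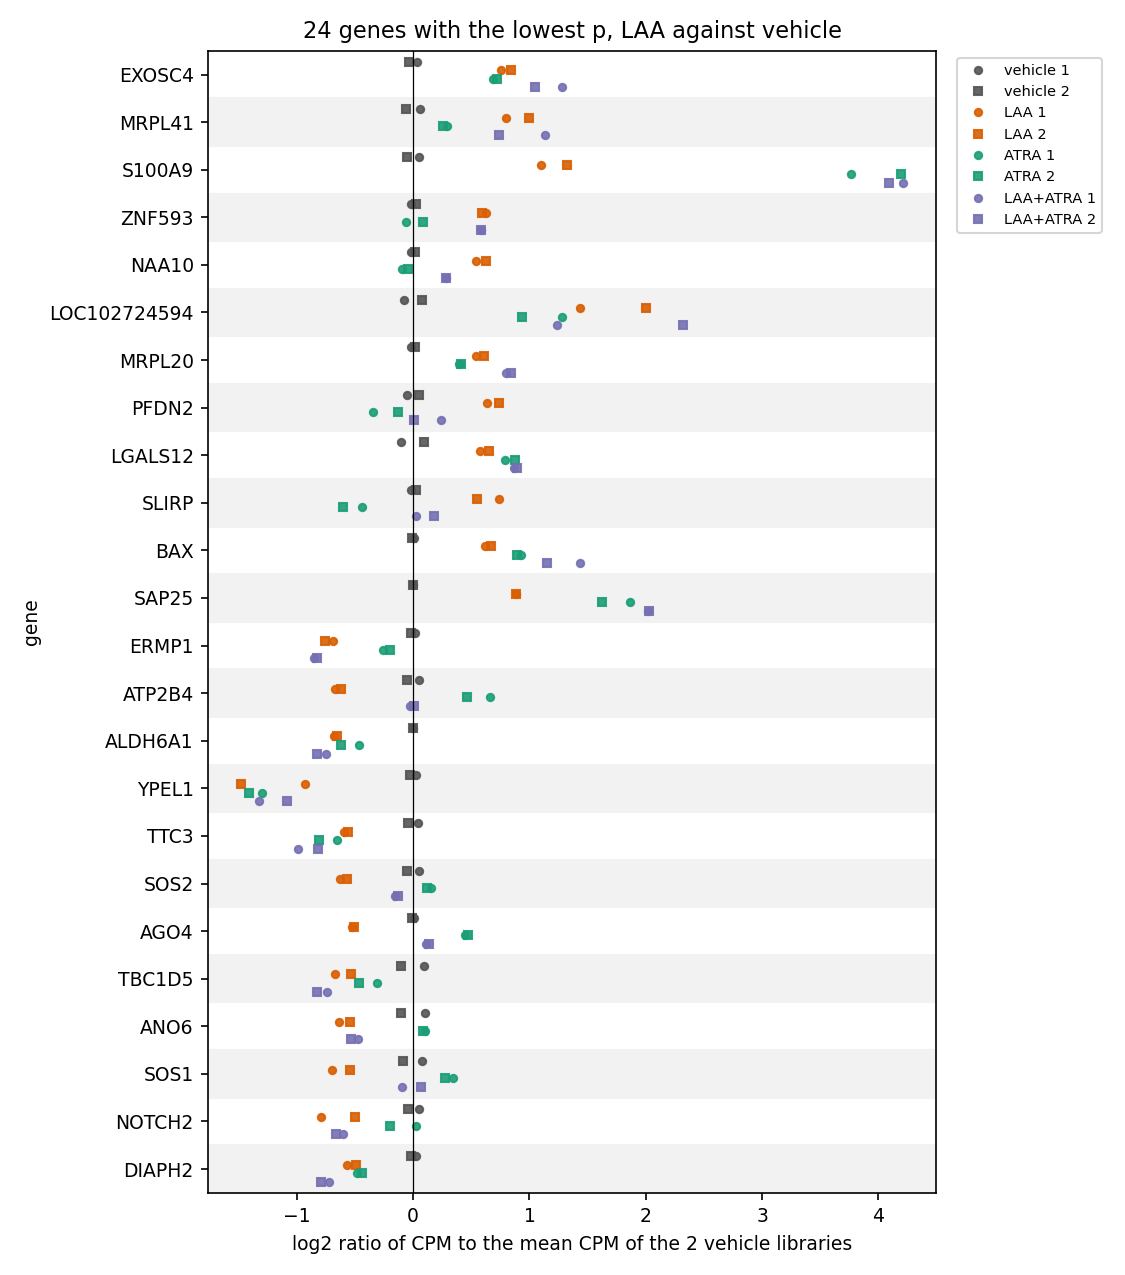
Each row is 1 of the 24 genes with the lowest p, and the horizontal axis is the log2 ratio of its CPM to the mean CPM of the 2 vehicle libraries; points are single libraries, colored by group. In all 24 rows the LAA points lie apart from the vehicle points, by a fitted log2 difference whose size ran from 0.52 to 1.75.

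The promoters of a higher and a lower gene of these 24, and the start region of an ascorbate-dependent enzyme described further on, are printed because their genes carry the comparison: MRPL20 was among the higher genes, ERMP1 fell, and P4HA1 had the lowest p of its list. The first pair are the bases just before the gene (GRCh38.p14, RefSeq; chr1:1407314-1407543 and chr9:5833118-5833367, both minus strand), and the last is a window of 30 bases inside the first exon by GENCODE 29 (chr10:73096935-73096964, minus strand). Capitals mark a match to CCGGAAG, the core bound by ETS-family factors, in MRPL20, and in P4HA1 to CACGT, the reverse complement of ACGTG, a core of the hypoxia response element.
MRPL20: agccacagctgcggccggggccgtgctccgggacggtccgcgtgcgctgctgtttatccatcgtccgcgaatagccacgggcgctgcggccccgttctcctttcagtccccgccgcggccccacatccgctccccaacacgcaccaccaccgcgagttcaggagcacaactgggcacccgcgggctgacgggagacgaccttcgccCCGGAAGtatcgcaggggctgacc
ERMP1: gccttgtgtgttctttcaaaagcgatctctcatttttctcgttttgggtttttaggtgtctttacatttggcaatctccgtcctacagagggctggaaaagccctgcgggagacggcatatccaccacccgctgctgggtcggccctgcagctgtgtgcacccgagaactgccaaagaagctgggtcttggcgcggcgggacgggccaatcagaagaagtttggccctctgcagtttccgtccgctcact
P4HA1: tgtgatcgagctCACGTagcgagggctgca
No CCGGAAG was found in the printed ERMP1 sequence on either strand. The hypoxia response element core was marked only in P4HA1. The MRPL20 sequence also holds another form of that core, GCGTG, and its reverse complement CACGC, which are not marked.

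Motifs were counted on both strands in the 250 bases before each RefSeq start, without chromosome 8. CCGGAAG was in 8.52% of all 35116 promoters and in at least 1 promoter of 19% of the 10688 tested genes that had an entry. Of the mitochondrial ribosomal genes 11 of 38 (28.9%) held it, as did 11 of 32 genes of oxidative phosphorylation (34.4%) and 8 of 29 genes of the ribosome biogenesis list (27.6%), and the shares were 13.6% in the hypoxia list and 17.6% in the JmjC list. The E-box CACGTG, which MYC and related factors bind, was in 6.34% of all promoters, in 11.2% of tested genes and in 6 of 29 ribosome biogenesis genes (20.7%). It was in 8 of 22 genes of the hypoxia list (36.4%), 4 of 17 JmjC demethylase genes (23.5%), 5 of 38 mitochondrial ribosomal genes (13.2%) and 2 of 32 genes of oxidative phosphorylation (6.25%). The hypoxia response element core, ACGTG or GCGTG, is short and common. It was in 43.2% of all promoters and 64.5% of tested genes, in 20 of 22 genes of the hypoxia list (90.9%), 24 of 29 ribosome biogenesis genes (82.8%), 13 of 17 JmjC demethylase genes (76.5%), 25 of 38 mitochondrial ribosomal genes (65.8%) and 20 of 32 genes of oxidative phosphorylation (62.5%). CACGTG contains ACGTG, so these counts overlap. A match is a description of the sequence and not a site.

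Transcript length moved with the LAA against vehicle difference across the whole table, and the median with length and GC offsets is given beside the gene groups described from here on. Within each library, the slope of log2 CPM on log2 length over 14725 genes with an annotated length, relative to the mean of the 4 libraries, was 0.0794 and 0.0456 per doubling of length in vehicle and -0.0682 and -0.0569 with LAA. The groups did not overlap, and they differed by -0.125 per doubling, with p = 0.333 in an exact permutation test over 6 splits, 2-sided, which is the smallest p this design allows. The genes were put in 10 equal bins by length. In the bin with the shortest transcripts (158 to 1161 bases) the median log2 difference was 0.27, and in the bin with the longest (from 7154 bases) it was -0.20, falling at every step between. In the shortest bin 43.1% of genes had both LAA libraries above both vehicle libraries and 9.22% below, while in the longest bin these shares were 7.81% and 58.7%. The 4-library fit called 244 genes higher and 8 lower in the shortest bin, and 17 higher and 290 lower in the longest. With length and GC offsets for each library, the median of every bin lay between -0.02 and 0. The offsets were themselves fitted to length and GC content in these libraries, so small bin medians were set in advance. Across all 14725 genes, which are not independent replicates, Spearman's rho of the log2 difference with log2 length was -0.392. The part of transcript length in the gene results was not tested beyond these offsets. A trend of the same sign was seen in the other pair of groups, where the median difference of LAA+ATRA from ATRA was 0.27 in the shortest bin and -0.16 in the longest.

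**Figure D2:**
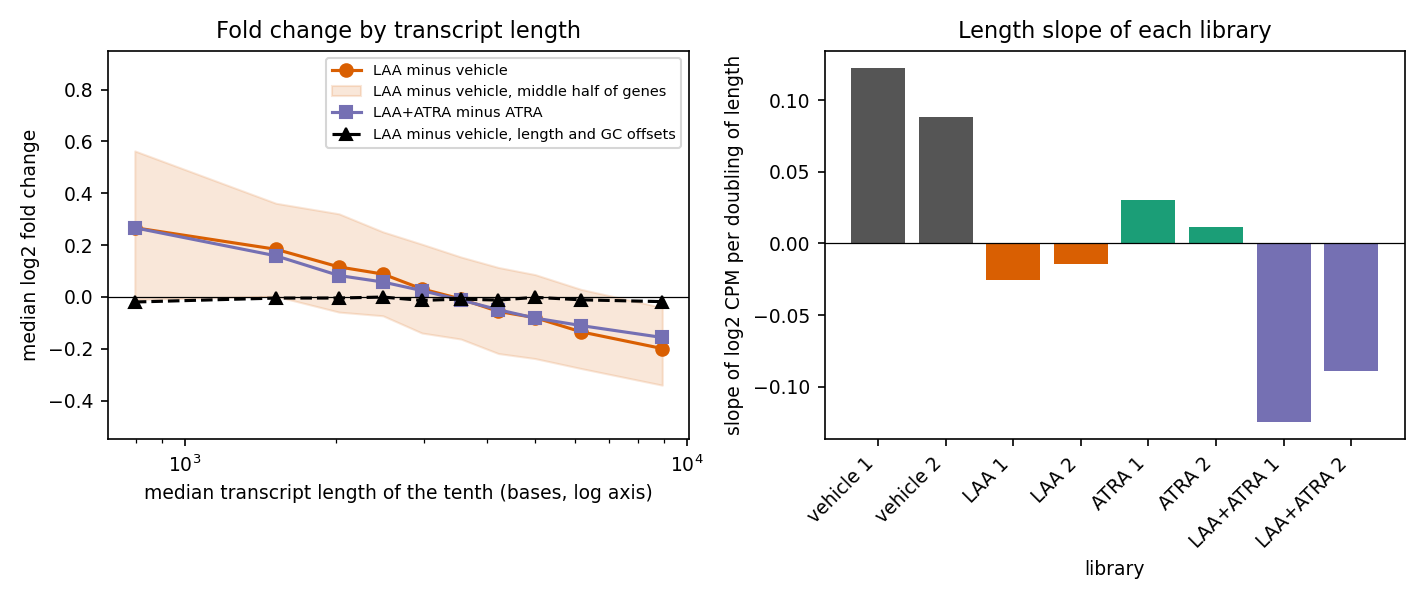
The left panel plots the median log2 fold change of 10 equal bins of genes by transcript length (log axis, bases) for LAA minus vehicle, with and without length and GC offsets, and for LAA+ATRA minus ATRA. The right panel shows the slope of log2 CPM per doubling of length in each of the 8 libraries; the median falls from 0.27 to -0.20 along the bins, and the LAA libraries have lower slopes than the vehicle libraries.

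With these offsets 20 genes were called, 13 higher (0.0867%) and 7 lower (0.0467%). ERMP1 and ATP2B4 were among the lower calls, with log2 differences of -0.59 and -0.46 after the offsets and an edgeR adjusted p of 0.041 for each. EXOSC4 kept a difference of 0.50, with an adjusted p of 0.0575. All 24 genes with the lowest p kept their sign, 23 moved closer to 0 and 3 were called. The genes PSMC5, SIGLEC6 and TOMM5, called in the 8-library fit with the offsets and not without them, also passed the 4-library fit, and were chosen after their values were seen. PSMC5, an ATPase subunit of the proteasome cap, read 73.8 and 77.4 CPM in vehicle and 109 and 115 CPM with LAA, with a log2 difference of 0.57 before and 0.54 after the offsets. SIGLEC6, a sialic acid-binding receptor, read 89.4 and 92.5 CPM in vehicle and 59.6 and 63.3 CPM with LAA, with -0.57 before and -0.71 after. TOMM5, of the import pore of the outer mitochondrial membrane, read 67.5 and 63.5 CPM in vehicle and 96.4 and 95.2 CPM with LAA. The edgeR adjusted p of these calls was 0.041 to 0.0488.

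Nuclear genes for mitochondrial proteins were mostly higher with LAA. The list of genes for mitochondrial ribosomal proteins is partial and leaves out MRPL41. Of its 45 tested genes, 40 had both LAA libraries above both vehicle libraries and 2 had them below (28.6% and 27.4% of all genes). The median log2 difference was 0.31, against 0.01 over all genes. None was called in the 8-library fit, 28 passed the 4-library fit as higher (7.5% of all genes) and none as lower, and DESeq2 called 13. MRPL21 read 35.4 and 36.3 CPM in vehicle and 53 and 52.4 CPM with LAA. MRPL28 read 46.1 and 42.3 CPM in vehicle and 58.8 and 64.8 CPM with LAA, and MRPL19 went the other way at 52.2 and 46.4 CPM and then 38.4 and 43.3 CPM. The median transcript of the list was 1693 bases. In the length bin around that value (1162 to 1781 bases), 49.2% of genes had LAA libraries above and 8.76% below, with a median of 0.18. With length and GC offsets the median difference of the list was 0.13. So the list's median stayed above 0 but was smaller.

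Of 42 nuclear genes of oxidative phosphorylation, the chain of complexes that makes ATP, 33 had LAA libraries above and 3 below (28.6% and 27.4% of all genes), with a median of 0.24, and 21 passed the 4-library fit as higher (7.5% of all genes) and none as lower. NDUFB9, of complex I, read 270 and 280 CPM in vehicle and 411 and 404 CPM with LAA, a log2 difference of 0.57 ± 0.11 (SE) that was also 0.57 after the offsets (edgeR adjusted p = 0.0488). COX5B, of complex IV, read 172 and 171 CPM in vehicle and 253 and 245 CPM with LAA, with 0.54 before and 0.20 after the offsets. The offsets used the longest annotated transcript, 2794 bases for NDUFB9 and 738 bases for COX5B. In vehicle NDUFB9 read 668 and 672 FPKM and COX5B read 429 and 415 FPKM. Set against CPM these imply similar lengths for both genes, so the offset value of NDUFB9 is uncertain. NDUFB3 read 26.7 and 28.9 CPM in vehicle and 44 and 39 CPM with LAA. SDHA, of complex II, was not higher, at 192 and 182 CPM in vehicle and 163 and 175 CPM with LAA. The median transcript of this list was 1912 bases. In the length bin around that value (1782 to 2254 bases), 41.3% of genes had LAA libraries above and 13.3% below, with a median of 0.12. The median of this list after the offsets was 0.12.

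The 13 genes encoded by the mitochondrial genome, which code for core subunits of the same complexes, did not follow. None had LAA libraries above, 6 had them below (28.6% and 27.4% of all genes), and the median log2 difference was -0.12. MT-CO1 read 9829 and 9017 CPM in vehicle and 7896 and 7104 CPM with LAA. The 13 genes summed to 32655 and 31285 CPM in vehicle and 29516 and 26516 CPM with LAA. The median was -0.20 without LAA replicate 1 and -0.06 without LAA replicate 2, so it depended on a single library, and the offsets, which rest on the short annotated lengths of these genes, moved it to -0.35. In the ATRA-treated cells the same 13 genes had a median of 0.65 for LAA+ATRA against ATRA, where 6 rose in the edgeR fit (0.493% of all genes rose there). The difference between both effects was tested for each gene, and none of the 13 was called; the lowest p was that of MT-ND6, 0.000156 before and 0.383 after adjustment.

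Genes of ribosome assembly and MYC targets were also mostly higher. Of 35 genes, 26 had LAA libraries above and 1 below (28.6% and 27.4% of all genes), the median was 0.20, and 15 passed the 4-library fit as higher (7.5% of all genes) and none as lower. NOP16, a nucleolar protein, read 45.6 and 51 CPM in vehicle and 71.9 and 70.8 CPM with LAA. WDR74, which acts in the maturation of the large ribosomal subunit, read 46.3 and 44.5 CPM in vehicle and 63.2 and 62.9 CPM with LAA. MYC itself, the transcription factor named in the list, read 390 and 361 CPM in vehicle and 340 and 387 CPM with LAA, so its groups overlapped. The median after the offsets was 0.16. PWP2, another assembly factor, was among the genes with the largest differences, at 4.28 and 4.46 CPM in vehicle and 10.6 and 10.6 CPM with LAA (log2 difference 1.27 ± 0.26 SE, edgeR adjusted p = 0.0509). It has a near-identical and far more abundant copy, LOC102724159, at 71.2 and 67.2 CPM in vehicle and 66.2 and 69.6 CPM with LAA, so its own value is uncertain.

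Genes for cytosolic ribosomal proteins leaned higher by less. Of 52 genes, 40 had LAA libraries above and 3 below (28.6% and 27.4% of all genes), with a median of 0.15, and 17 passed the 4-library fit as higher (7.5% of all genes). RPL35 read 823 and 815 CPM in vehicle and 1207 and 1259 CPM with LAA, and RPL38 read 280 and 332 CPM and then 431 and 443 CPM. The median transcript of the list was 1849 bases, and the length bin of 1782 to 2254 bases had a median of 0.12. The offsets brought the median of the list to 0.02.

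The RNA exosome list, which holds EXOSC4, had genes on both sides. Of its 23 tested genes of the exosome and its cofactors, EXOSC4 among them, 11 had LAA libraries above and 6 below (28.6% and 27.4% of all genes), and the median was 0.08, or 0.10 with the offsets. EXOSC3, a cap subunit that binds RNA, read 43.6 and 48.8 CPM in vehicle and 63.7 and 61.8 CPM with LAA (log2 difference 0.44). TTC37, a scaffold of the Ski complex that feeds RNA into the exosome, read 64.6 and 56.3 CPM in vehicle and 44.8 and 44.3 CPM with LAA (-0.44). The 4-library fit passed 3 of the 23 as higher, EXOSC4 and EXOSC3 among them, and 1 as lower (7.5% and 5.95% of all genes).

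Heat shock genes, which encode chaperones, were mostly higher, and their median stayed near its value with the offsets. Of 18 genes, 14 had LAA libraries above and none below (28.6% and 27.4% of all genes), the median was 0.22 before and 0.20 after the offsets, and 9 passed the 4-library fit as higher (7.5% of all genes) and none as lower. HSPE1, the mitochondrial co-chaperonin, read 179 and 174 CPM in vehicle and 256 and 256 CPM with LAA. STIP1, which joins HSP70 to HSP90, read 173 and 178 CPM in vehicle and 236 and 236 CPM with LAA. HSPB1, a small heat shock protein, read 407 and 448 CPM in vehicle and 589 and 582 CPM with LAA. The offsets moved the log2 difference from 0.54 to 0.28 for HSPE1, 0.43 to 0.34 for STIP1 and 0.45 to 0.17 for HSPB1. HSP90AB1, the most abundant member, read 2938 and 2999 CPM in vehicle and 3011 and 3177 CPM with LAA, a log2 difference of 0.06. None of the 18 was called in the 8-library edgeR fit, where the lowest adjusted p was 0.056.

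Turning to enzymes that use ascorbate, P4HA1, the catalytic subunit of collagen prolyl hydroxylase, stood out of the list of 24 tested prolyl, lysyl and related hydroxylases. The gene lies at chr10:73007217-73096974 on the minus strand. It read 90.4 and 99.3 CPM in vehicle and 59.7 and 56.6 CPM with LAA, or 38.1 and 41.7 FPKM and then 24.5 and 23.8 FPKM. The groups were well apart, by a log2 difference of -0.71 ± 0.15 (SE). The edgeR adjusted p was 0.0569 in the 8-library fit and 0.00095 in the 4-library fit, and DESeq2 gave an adjusted p of 0.000901. With the replicate block the edgeR adjusted p was 0.0801, and limma on log2(FPKM + 1) gave 0.188. The log2 difference ran from -0.77 to -0.64 when 1 of the 4 libraries was left out. P4HA1 was thus not called in the 8-library fit. Its transcript is near the middle of the length range, at 2844 bases, and the difference was -0.69 with the offsets. The sister gene P4HA2 was not tested, with 13 counts in all libraries. P4HB, the partner subunit that is also a disulfide isomerase, read 2880 and 3024 CPM in vehicle and 2614 and 2878 CPM with LAA.

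The hydroxylase list as a whole had genes on both sides. Of its 24 tested genes (30 listed), P4HA1 included, 6 had LAA libraries above and 10 below (28.6% and 27.4% of all genes), and the median was -0.05, or -0.07 with the offsets. EGLN2, a HIF prolyl hydroxylase, read 97.4 and 96.9 CPM in vehicle and 117 and 128 CPM with LAA. EGLN1, the main HIF prolyl hydroxylase in most cells, read 37.4 and 39.3 CPM in vehicle and 33.3 and 32.5 CPM with LAA. EGLN3 had 3 counts in all 8 libraries and was not tested. So the EGLN genes lay on opposite sides, with log2 differences of 0.33 for EGLN2 and -0.22 for EGLN1, neither called by edgeR. PAM, the copper enzyme that amidates peptides and uses ascorbate as its reductant, was looked up after the values were seen. It read 37.7 and 40.7 CPM in vehicle and 22.7 and 28.2 CPM with LAA, a log2 difference of -0.62 ± 0.12 (SE, edgeR adjusted p = 0.0509) that was -0.49 with the offsets.

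JmjC histone demethylases were mostly lower. Of 20 genes 13 had LAA libraries below and 4 above (27.4% and 28.6% of all genes), the median log2 difference was -0.19, and 5 passed the 4-library fit as lower (5.95% of all genes) and none as higher. JMJD1C read 28.5 and 29 CPM in vehicle and 19.4 and 17.7 CPM with LAA, a log2 difference of -0.64 ± 0.12 (SE). KDM3A, which removes methyl groups from lysine 9 of histone H3, read 51.1 and 63.6 CPM in vehicle and 41.5 and 43.6 CPM with LAA. KDM5B, which acts on lysine 4, read 141 and 135 CPM in vehicle and 106 and 115 CPM with LAA. The members are long, with a median of 6079 bases. In the length bin around that value (5522 to 7151 bases), 47.4% of genes had LAA libraries below and 13.3% above, with a median of -0.13. The median difference of the list with the offsets was -0.10, where JMJD1C stood at -0.43, KDM3A at -0.23 and KDM5B at -0.11.

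The TET genes were low per length. TET3 read 3.73 and 3.34 FPKM in vehicle and 2.57 and 3.04 FPKM with LAA, TET2 read 0.954 and 0.735 FPKM and then 0.749 and 0.57 FPKM, and TET1 read 0.562 and 0.462 FPKM and then 0.368 and 0.385 FPKM. The log2 differences of CPM were -0.32 for TET3, -0.34 for TET2 and -0.42 for TET1, with edgeR adjusted p-values of 0.22, 0.41 and 0.603. These are among the longest transcripts of the list, and the differences were -0.17, -0.12 and -0.21 with the offsets. Of the 15 tested genes of DNA methylation and its removal, 2 had LAA libraries above and 4 below (28.6% and 27.4% of all genes), with a median of -0.03, or 0.00 with the offsets.

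Among 14 tested genes of ascorbate transport and recycling the median was 0.05, with 5 above and 3 below (28.6% and 27.4% of all genes), and 0.03 with the offsets. The transporter SLC23A2 read 75.7 and 78.5 CPM in vehicle and 60.1 and 63.7 CPM with LAA (log2 difference -0.32, and -0.18 with the offsets), while SLC23A1 had 12 counts in all and was not tested. CYB5A, the cytochrome that passes electrons to monodehydroascorbate among other acceptors, read 10 and 8.59 CPM in vehicle and 13.9 and 13.6 CPM with LAA. GSTO1, which can reduce dehydroascorbate, read 194 and 167 CPM in vehicle and 241 and 234 CPM with LAA. None of the 14 was called in the 8-library edgeR fit, 2 passed the 4-library fit as higher and 1, SLC23A2, as lower (7.5% and 5.95% of all genes), and DESeq2 called none.

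**Figure D3:**
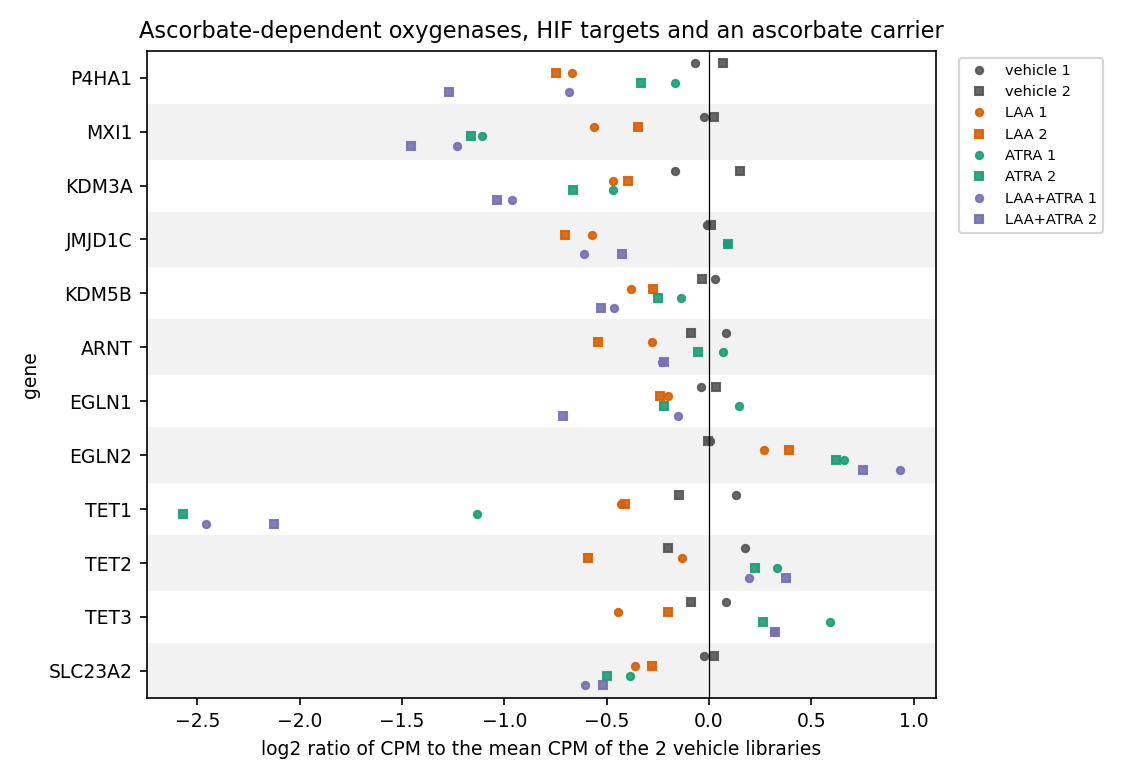
Each row is a gene of ascorbate-dependent enzymes, of hypoxia response or of ascorbate transport, and the horizontal axis is the log2 ratio of its CPM to the mean CPM of the 2 vehicle libraries, with single libraries as points. P4HA1 and JMJD1C lie below 0 in both LAA libraries, by fitted log2 differences of -0.71 and -0.64, while EGLN2 lies above it by 0.33.

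Hypoxia and HIF target genes leaned lower, but the size of that depended on the vehicle library. Of 25 tested genes (30 listed), 1 had LAA libraries above and 11 below (28.6% and 27.4% of all genes), the median was -0.19, and 8 passed the 4-library fit as lower (5.95% of all genes) and none as higher. P4HA1 and KDM3A are also in this list. MXI1, a MYC antagonist, read 61.7 and 63.9 CPM in vehicle and 42.6 and 49.4 CPM with LAA. HIF1A read 44.9 and 42.7 CPM in vehicle and 34.5 and 35.4 CPM with LAA, and its partner ARNT read 65.8 and 58.6 CPM and then 51.2 and 42.8 CPM. Of the angiogenic and glycolytic targets, VEGFA read 107 and 115 CPM in vehicle and 125 and 114 CPM with LAA, and LDHA read 671 and 775 CPM and then 783 and 740 CPM, so both overlapped between the groups. The members' median deviation from the mean of the 4 libraries was -0.03 and 0.21 in the vehicle libraries and -0.07 and -0.11 in the LAA libraries. NDRG1 read 243 and 303 CPM in vehicle and 181 and 212 CPM with LAA. Without vehicle replicate 2 the median of the list was 0.01, and without vehicle replicate 1 it was -0.32. The median with length and GC offsets was -0.16.

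Genes that respond to oxidants were higher by small amounts. Of 23 enzymes of peroxide and glutathione metabolism, 17 had LAA libraries above and 2 below (28.6% and 27.4% of all genes). Their median was 0.18 before and 0.05 after the offsets, and 6 of the 23 passed the 4-library fit as higher (7.5% of all genes). Their median transcript was 1780 bases. In the length bin of 1162 to 1781 bases, 49.2% of genes had LAA libraries above and 8.76% below, also with a median of 0.18. PRDX1, a peroxiredoxin, read 349.7 and 350.4 CPM in vehicle and 446 and 425 CPM with LAA, and SOD1 read 259 and 266 CPM and then 316 and 310 CPM. Of 22 NRF2 target genes 13 had LAA libraries above and 3 below (28.6% and 27.4% of all genes). Their median was 0.11, and 0.04 with the offsets. In the 4-library fit 6 of them passed as higher and none as lower (7.5% and 5.95% of all genes). HMOX1, the heme oxygenase that rises sharply under oxidative stress, read 4.04 and 5.09 CPM in vehicle and 7.05 and 5.46 CPM with LAA, a log2 difference of 0.45 ± 0.21 (SE, edgeR adjusted p = 0.258). NQO1 read 52.8 and 50.6 CPM in vehicle and 60.9 and 62.9 CPM with LAA, so its groups were apart by a log2 difference of 0.26, which edgeR did not call (adjusted p = 0.223).

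Myeloid genes lay on both sides of vehicle. The phagocyte NADPH oxidase, which makes superoxide, had 8 of 12 listed genes tested. Of these, 6 had LAA libraries above and 1 below (28.6% and 27.4% of all genes). The 4-library fit passed 3 as higher (7.5% of all genes), which were NCF1, NCF4 and CYBA, and not CYBB. CYBA, the most abundant member, read 202 and 197 CPM in vehicle and 264 and 288 CPM with LAA. The median of the list was 0.23, and 0.14 with the offsets. NCF1, the organizer subunit p47phox, read 1.73 and 1.6 CPM in vehicle and 4.17 and 3.26 CPM with LAA, a log2 difference of 1.16 ± 0.25 (SE, edgeR adjusted p = 0.0569). CYBB, the catalytic subunit, read 3.13 and 4.03 CPM in vehicle and 5.26 and 5.99 CPM with LAA, and NCF4 read 98 and 100.3 CPM and then 124 and 131 CPM. NCF1 has near-identical pseudogenes that can share its reads. In ATRA-treated cells the list had a median of -0.05 for LAA+ATRA against ATRA.

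Of 16 tested monocyte and macrophage markers 7 had LAA libraries above and 2 below (28.6% and 27.4% of all genes), with a median of 0.18 that was 0.08 with the offsets, 0.08 without LAA replicate 1 and 0.11 without vehicle replicate 1. LYZ, lysozyme, read 388 and 429 FPKM in vehicle and 633 and 649 FPKM with LAA, a log2 difference of CPM of 0.68 ± 0.17 (SE, edgeR adjusted p = 0.0692). ITGAM, the CD11b integrin of mature myeloid cells, read 10.2 and 11.5 CPM in vehicle and 11.6 and 14 CPM with LAA. Of 17 tested granulocyte genes 7 had LAA libraries above and 3 below (28.6% and 27.4% of all genes), with a median of 0.10 that turned to -0.06 with the offsets and was 0.29 without vehicle replicate 2 and 0.04 without LAA replicate 2. ELANE, neutrophil elastase, was level without offsets, at 2082 and 2131 CPM in vehicle and 2065 and 2165 CPM with LAA. With the offsets ELANE was lower with LAA, by the values given in the last section. Fewer cells of a type and less RNA per cell cannot be told apart in bulk RNA.

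Of 22 surface receptors of adhesion 11 had LAA libraries below and 6 above (27.4% and 28.6% of all genes), so the share above was near that of all genes. Their median was -0.09, which was -0.11 with the offsets and -0.14 without LAA replicate 2, and 5 passed the 4-library fit as lower and 1 as higher (5.95% and 7.5% of all genes). CD44, the hyaluronan receptor, read 187.7 and 188.4 CPM in vehicle and 138 and 143 CPM with LAA. ITGA6, an integrin chain, read 193 and 175 CPM in vehicle and 133 and 138 CPM with LAA, and its partner ITGB1 read 209 and 182 CPM and then 146 and 154 CPM. The phosphatase PTPRC (CD45), of the identity list, read 129 and 119 CPM in vehicle and 88.6 and 94.2 CPM with LAA, a log2 difference of -0.44 ± 0.10 (SE, edgeR adjusted p = 0.0569). With the offsets these stood at -0.28 for CD44, -0.30 for ITGA6, -0.31 for ITGB1 and -0.30 for PTPRC. For LAA+ATRA against ATRA, in other libraries, 4 genes of the adhesion list fell (0.52% of all genes fell there) and its median was -0.36.

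ERMP1 belongs to a list of genes of the endoplasmic reticulum membrane and of aminopeptidases. Of these 18 genes, ERMP1 included, 9 had LAA libraries below and 4 above (27.4% and 28.6% of all genes), with a median of -0.14. In the 4-library fit 4 passed as lower, ERMP1 among them, and 1 as higher (5.95% and 7.5% of all genes). ERAP1, which trims peptides for antigen presentation, read 30.4 and 29.9 CPM in vehicle and 21.6 and 21.4 CPM with LAA. LNPEP, the insulin-regulated aminopeptidase, read 52.8 and 47.7 CPM in vehicle and 34.9 and 39.2 CPM with LAA. The offsets moved ERAP1 from -0.49 to -0.35, LNPEP from -0.44 to -0.21 and the median to -0.11.

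Cell cycle lists had small medians. Of 37 DNA replication genes 20 had LAA libraries above and 6 below (28.6% and 27.4% of all genes). Their median was 0.10 (0.07 with the offsets), and 5 passed the 4-library fit as higher and 1 as lower (7.5% and 5.95% of all genes). Of 29 genes of G2 and mitosis 6 were above and 9 below (28.6% and 27.4% of all genes). Their median was 0.02 (also 0.02 with the offsets), and 3 passed that fit as higher and 1 as lower (7.5% and 5.95% of all genes). In the list of inhibitors and G1 genes the median was 0.14 (0.09 with the offsets, 0.08 without vehicle replicate 2). Of its 21 genes 11 were above and 4 below (28.6% and 27.4% of all genes). In the 4-library fit 4 passed as higher, E2F1 among them, and 3 as lower, CDK6 among them (7.5% and 5.95% of all genes). CDK6, a G1 kinase, read 206 and 187 CPM in vehicle and 139 and 135 CPM with LAA (log2 difference -0.52, -0.29 with the offsets), and E2F1 read 37.4 and 35.1 CPM and then 50.1 and 51.5 CPM. TFRC, the transferrin receptor of the iron list, read 97.5 and 122 CPM in vehicle and 157 and 156 CPM with LAA, a log2 difference of 0.51 that was 0.64 with the offsets, while the 21 iron genes had a median of -0.03 (-0.04 with the offsets). The medians were -0.02 for 30 interferon-stimulated genes (-0.07 with the offsets), -0.02 for 19 genes of antigen presentation (-0.03), 0.01 for 18 of glycolysis (-0.08), 0.00 for 22 of cholesterol synthesis (0.03) and 0.02 for 16 of retinoid response (-0.09), so those of glycolysis, cholesterol synthesis and retinoid response turned sign with the offsets. None of the genes in these lists was called by the 8-library edgeR fit.

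**Figure D4:**
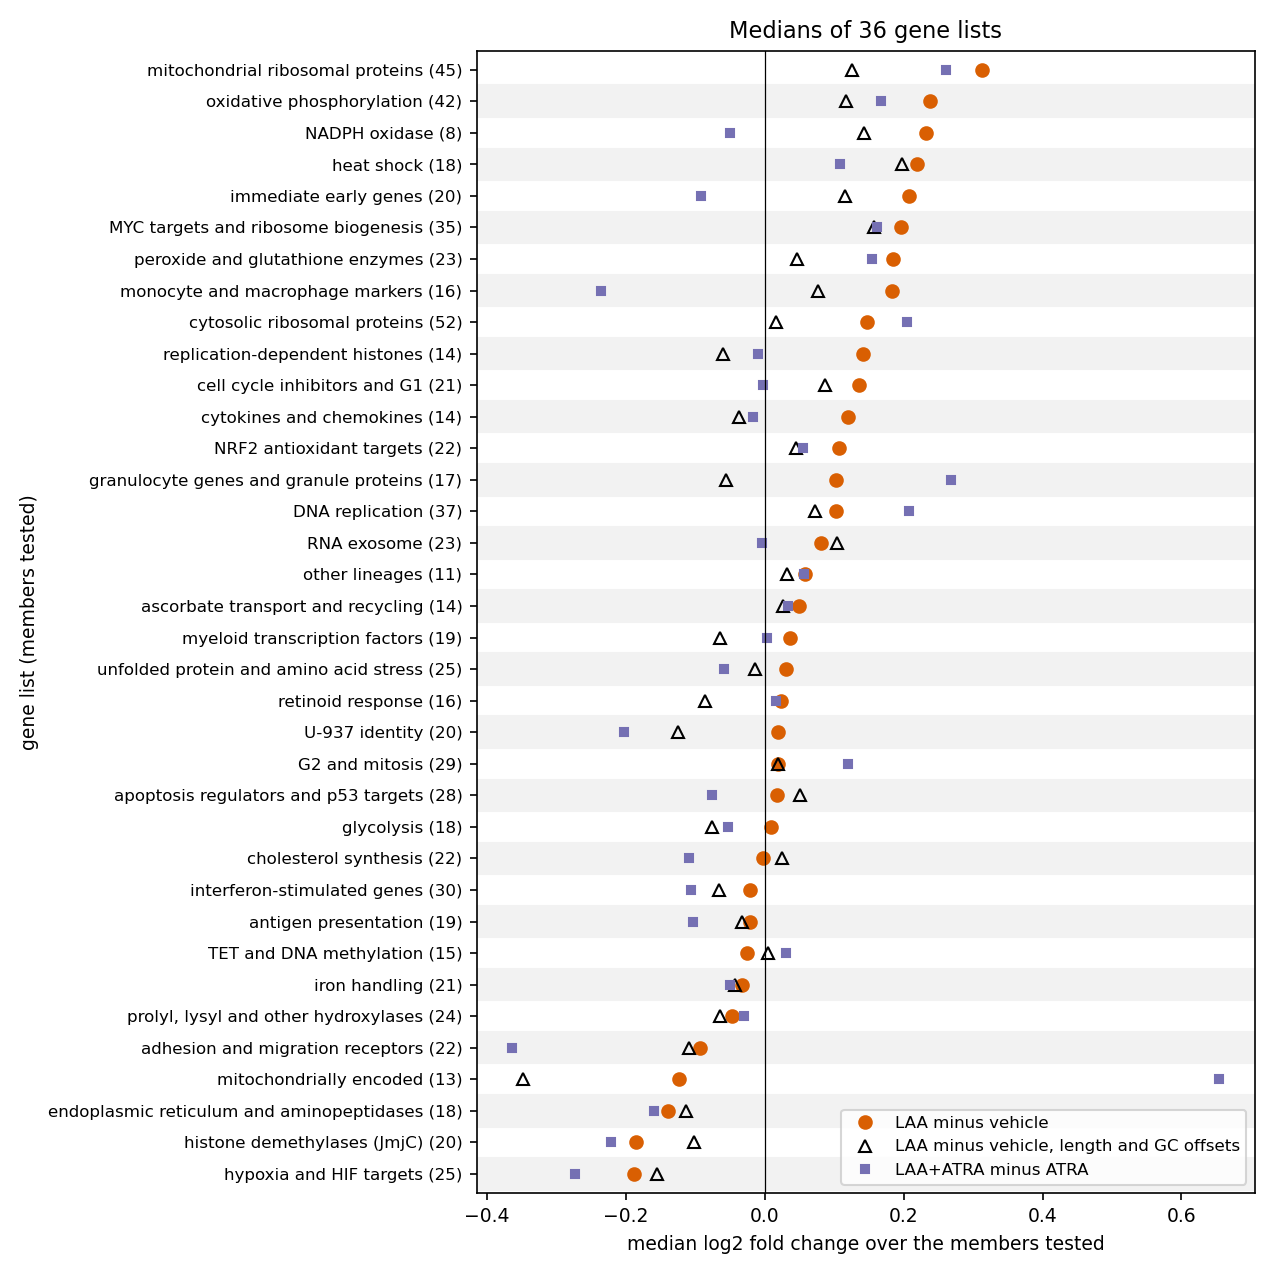
The horizontal axis is the median log2 fold change over the tested members of each of the 36 lists (number tested in brackets) for LAA minus vehicle, the same with length and GC offsets, and LAA+ATRA minus ATRA. Mitochondrial ribosomal proteins have the highest median for LAA minus vehicle, 0.31, and it moves to 0.13 with the offsets, while that of heat shock genes moves from 0.22 to 0.20.

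The LAA effect can be read a second time in cells that also had ATRA, because LAA+ATRA against ATRA uses none of the libraries above, although the spread is estimated over all 8. In this second comparison 152 genes (1.01%) were called by edgeR, 74 higher and 78 lower, but an edgeR fit to only those 4 libraries called 10. Of the 24 genes with the lowest p for LAA alone, 23 had the same sign there, 19 of them with an unadjusted p under 0.05 and 6 called, while 68.5% of all genes tested had the same sign in both comparisons and 73.4% of those with a mean of at least 5 CPM. ERMP1 read 46.8 and 48.8 CPM with ATRA and 31.1 and 31.7 CPM with both compounds, a log2 difference of -0.61 (edgeR adjusted p = 0.0286). ATP2B4 read 208 and 181 CPM with ATRA and 129 and 132 CPM with both, a log2 difference of -0.58 (edgeR adjusted p = 0.0337). MRPL41 (0.67), ZNF593 (0.56), SLIRP (0.63) and ANO6 (-0.60) were the other 4 of the 6. EXOSC4 read 46.4 and 47.8 CPM with ATRA and 70.1 and 59.7 CPM with both, a log2 difference of 0.46 (edgeR adjusted p = 0.0602). P4HA1 read 84.6 and 75.4 CPM with ATRA and 59 and 39.4 CPM with both, and its log2 difference of -0.70 was close to the -0.71 of LAA alone.

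Other values were far from those of LAA alone. YPEL1 had the opposite sign, at 0.16, CDK6 stood at 0.00 and LGALS12 at 0.05. S100A9 differed by 0.16 against 1.21 for LAA alone. The difference of the 2 effects was tested as an interaction for every gene, and 1 gene in all was called by edgeR (0.00667%). It was none of the 24, of which 8 had an unadjusted p under 0.05. The 24 were picked by their LAA against vehicle values, which also enter the interaction. That count therefore cannot be read as a result about these genes. Over 10512 genes with a mean of at least 5 CPM, which are not independent replicates, the log2 differences of both comparisons had a Spearman's rho of 0.605, and of 0.451 with length and GC offsets. The genes share transcript length and GC content across both comparisons, and the length trend is present in each.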

How the data were processed

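RNA was measured in 8 libraries of U-937 cells, 2 per group. Messenger RNA was captured on poly-T beads and prepared with an NEBNext Ultra II kit, per the labels. Salmon 1.8.0, DESeq2 1.36.0 and both GRCh38 and hg38 are named in the submitters' processing notes; the sources used here do not give the annotation release or the strand setting. The estimated counts per gene were deposited unscaled, and rounding them to whole numbers changed 16.5% of values. The FPKM values deposited by the authors are per kilobase, and their scaling is not stated. GENCODE 29 supplied gene symbols, positions, lengths and GC content and may differ from the authors' annotation. Length and GC content were those of the longest annotated transcript of a gene, which need not be the one expressed. Promoters came from RefSeq.

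Genes were filtered with filterByExpr, scaled by TMM and fitted in edgeR 4.0.16 (R 4.3.3) by quasi-likelihood with 4 group means over all 8 libraries, with a common dispersion of 0.0124. Log2 fold changes are on the scale of that model, and genes were called at an adjusted p under 0.05 (Benjamini-Hochberg). Length slopes used log2 CPM with a prior count of 1. Alternatives were DESeq2 1.42.0, RLE factors, no filter, only the 4 libraries compared, limma 3.58.1 with a variance per group or on log2(FPKM + 1) and log2(FPKM + 0.1), offsets per library for length and GC content, a replicate block, summed copies and leaving out each library. The fit was tested on simulated counts. The replicate numbers carry no stated meaning and were not used as pairs. The naming rule takes called genes, the 12 lowest p and 6 largest changes in each direction, and from each of 36 lists the 3 lowest p and the most abundant member, plus a few set genes. The members, lists, rule and tests were chosen with earlier results of these data known. Genes named outside the rule as examples of a list (such as SDHA, MRPL19, WDR74, HIF1A, VEGFA, NDRG1, PRDX1 and PAM) were chosen after their values were seen.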

Additional observations from a re-analysis of the deposited data

Results flagged for a closer look

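In the test of whether the LAA effect differed with and without ATRA, 1 gene was called by edgeR (0.00667% of 14995): EIF3CL, with an interaction log2 fold change of 12.64 and an adjusted p of 0.00106. It read 22.5 and 34.3 CPM in vehicle, 33.4 and 15.4 CPM with LAA, 0 and 0 CPM with ATRA, and 30.7 and 37.9 CPM with both compounds, so a group with no counts sets the size of the fitted value and it is no bound. EIF3CL is a near-identical copy of EIF3C, a subunit of a translation initiation factor, and reads can be split between them. With both copies summed, the interaction was 0.07 (edgeR adjusted p = 1).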

How the results depend on the processing

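Causes of the changes below were not tested. For LAA against vehicle, 4 genes were called, and the alternatives gave 713 with DESeq2, 828 without a low-count filter, 2 with the replicate block, 2016 with only the libraries compared, 1806 with a variance per group, 2 and 7 on log2(FPKM + 1) with and without a filter, 20 with length and GC offsets, 1282 with the offsets in only the libraries compared, 335 with a crossed replicate block, and 0 with 7 pairs of copies or overlapping genes summed (2833 genes had an unadjusted p under 0.05 in edgeR without summing). Leaving out 1 library gave 0 to 567: 0 without either vehicle library or LAA replicate 1, 2 without LAA replicate 2, 567 and 514 without ATRA replicate 1 or 2, and 325 and 341 without LAA+ATRA replicate 1 or 2. For LAA+ATRA against ATRA the 152 calls became 705 with DESeq2, 903 without a filter, 30 with the replicate block, 10 with only the libraries compared, 18 with a variance per group, 6 and 4 on log2(FPKM + 1) and log2(FPKM + 0.1), 27 on FPKM without a filter and 263 with offsets; leaving out 1 library gave 5 to 194. The single interaction call became 15 with DESeq2, 136 without a filter, 0 with a variance per group, 2, 3 and 10 in the same order of FPKM settings, 0 with pairs summed and 1 to 9 without 1 library. The length slope of -0.125 was -0.0842 on log2(FPKM + 1) and -0.146 in protein-coding genes, and -0.142 to -0.108 without 1 library. With offsets in only the libraries compared, NKG7 stood at -0.28, GAPDH at -0.18 and ELANE at -0.36, all called there, against 0.06, 0.00 and 0.01 without offsets and -0.30, -0.20 and -0.35 with offsets in all 8 libraries. Same-numbered vehicle and LAA libraries deviated with a correlation of -0.141, and ATRA and LAA+ATRA libraries with 0.111, so the numbers were not treated as pairing. The crossed block, the pair sums, the offsets in 4 libraries and the protein-coding slope were added after seeing the data. Where a library was left out, the lone one of its group was assumed to vary like the others.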
